A study of Mus musculus with 35 samples.

Results

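The 10 genes described here encode subunits of the ionotropic glutamate receptors of the AMPA type (*Gria1*, *Gria2*, *Gria3* and *Gria4*) and of the NMDA type (*Grin1*, *Grin2a*, *Grin2b*, *Grin2c*, *Grin2d* and *Grin3a*). They were chosen by gene name among the 22099 rows of a table of striatal RNA, in which each row is a gene or transcript cluster. Of the 10, 9 had a row under their own symbol, and *Grin3a* was read from the row mKIAA1973, a name that RefSeq gives as a synonym of *Grin3a* alone. All 10 passed the filter on low counts, which kept 17639 rows.

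RNA was sequenced from the striatum of 35 female C57BL6/J mice aged 299 to 304 days, with 1 library per mouse. The wild-type (WT) groups were saline with 6 mice, control ASO with 5 and *Htt* ASO with 6, and each of the 3 treatments was also given to 6 Htt Q111/+ mice. Htt Q111/+ mice are heterozygous knock-in animals that carry an expanded CAG tract in 1 of the copies of their own huntingtin gene, *Htt*, so every cell that uses the gene carries the allele. An ASO is an antisense oligonucleotide. The *Htt* ASO is directed at *Htt* RNA from the normal and the expanded allele, and the control ASO is an oligonucleotide without that target. Weekly injections into the abdominal cavity ran from 2 to 10 months of age, with 50 mg/kg of either ASO or 4 µL/g of saline. The question behind the treatment was whether lowering huntingtin outside the brain changes the brain, and mice were perfused with saline before dissection.

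Glutamate released by cortical and thalamic axons reaches the medium spiny neurons of the striatum through these receptors. AMPA receptors are tetramers of the GluA subunits encoded by *Gria1* to *Gria4*, and they carry the fast current. NMDA receptors combine the obligatory GluN1 subunit, from *Grin1*, with GluN2 subunits, from *Grin2a* to *Grin2d*, or with GluN3 subunits. They need glutamate together with glycine or D-serine, are blocked by magnesium at rest, and let calcium in once the membrane is depolarized. The GluN2 subunit sets how long the channel stays open and how strongly magnesium blocks it. Receptors of this family have long been studied in models of Huntington's disease.

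What separates *Gria2* from the other AMPA subunit genes is the editing of its RNA at a codon in the pore loop. The RNA of *Gria2* is edited there by the adenosine deaminase ADAR2, so that the genomic glutamine codon is read as arginine, and receptors with an edited GluA2 let little calcium through. The stretch around that codon is shown for all 4 genes, since their RNA levels moved apart in these data. Each line gives 39 bases of the coding strand, 5′ to 3′, from GENCODE M21 transcripts, with the codon at the editing position in capitals. It is codon 600 of 907 in *Gria1*, 607 of 883 in *Gria2*, 612 of 888 in *Gria3* and 608 of 902 in *Gria4*.
Gria1: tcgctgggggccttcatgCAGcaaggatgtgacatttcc
Gria2: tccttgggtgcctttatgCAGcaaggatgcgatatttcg
Gria3: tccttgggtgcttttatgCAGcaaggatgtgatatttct
Gria4: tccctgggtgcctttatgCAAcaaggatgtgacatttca
The genomic codon is CAG in *Gria1*, *Gria2* and *Gria3* and CAA in *Gria4*, and both code for glutamine. Within the 39 bases, *Gria3* differed from *Gria2* at 3 positions, *Gria4* at 5 and *Gria1* at 7. The count table gives reads per gene and holds no editing level.

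The AMPA subunit genes lie on 4 chromosomes of GRCm38 (GENCODE M21). *Gria1* is at chr11:57011387-57330244 on the plus strand, *Gria2* at chr3:80681450-80802835 on the minus strand, *Gria3* at chrX:41400854-41678601 on the plus strand and *Gria4* at chr9:4417896-4796234 on the minus strand. All 6 NMDA subunit genes are on minus strands. *Grin1* is at chr2:25291181-25319187, *Grin2a* at chr16:9567898-9995560, *Grin2b* at chr6:135713233-136173511, *Grin2c* at chr11:115249169-115267243, *Grin2d* at chr7:45831883-45878378 and *Grin3a* at chr4:49661611-49845744. The reads had been aligned to an older build, MGSCv37, and the table holds no coordinates.

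The libraries were of even depth, at 32200158 to 38641924 expected counts each (median 35538941). The row of the targeted gene, listed as Hdh, an older name of *Htt*, had a median of 88.0 CPM in WT and 74.8 CPM in Htt Q111/+ mice (log2 fold change of -0.23, adjusted p = 0.00100). CPM stands for the count of a row relative to its library's total, rescaled so that every library has the same total, after scaling by TMM, a method that aligns the bulk of genes between libraries. Against control ASO, *Htt* ASO moved this striatal row by a log2 difference of -0.08 (95% CI -0.22 to 0.06, adjusted p = 0.967), so the row did not tell treated from untreated striatum. The labels do not give litters, and p-values set differences between group means against the spread between mice within groups.

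The 10 rows fell into an abundant and a scarce class. *Gria2* had a mean of 949 ± 56.9 CPM (SD, n = 35), *Gria1* of 556 ± 20.5 CPM, *Grin1* of 442 ± 28.4 CPM, *Gria3* of 161 ± 12.6 CPM, *Gria4* of 94.8 ± 4.97 CPM and *Grin2c* of 54.9 ± 5.66 CPM. The other 4 rows were far lower. *Grin3a* had a mean of 4.83 ± 0.709 CPM, *Grin2d* of 3.95 ± 0.665 CPM, *Grin2b* of 3.84 ± 0.674 CPM and *Grin2a* of 3.69 ± 0.822 CPM. The coefficient of variation over all 35 mice was 14.7% to 22.3% in these 4 rows and 3.69% to 10.3% in the abundant ones.

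Long transcripts collect more reads, so the CPM above do not by themselves rank the genes, and levels were also compared per length. Divided by coding length, the order was *Gria2* at 358 CPM per kilobase, *Gria1* at 204, *Grin1* at 154, *Gria3* at 60.3, *Gria4* at 35.0 and *Grin2c* at 14.8. In all 35 mice each of these 6 exceeded the next. Below them *Grin3a* (1.42 CPM per kilobase) exceeded *Grin2d* (0.995) in 33 mice, *Grin2d* exceeded *Grin2b* (0.864) in 25, and *Grin2b* exceeded *Grin2a* (0.839) in 21, so the last 3 neighbours were not separated. With the longest annotated coding transcript as the length, the top 3 became *Grin1* (103 CPM per kilobase), *Gria1* (100.2) and *Gria2* (91.5), and *Grin1* exceeded *Gria1* in only 19 of 35 mice. The order of the top 3 therefore rests on the length used, while *Gria3*, *Gria4* and *Grin2c* kept ranks 4, 5 and 6 with each of the 3 lengths.

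**Figure D1:**
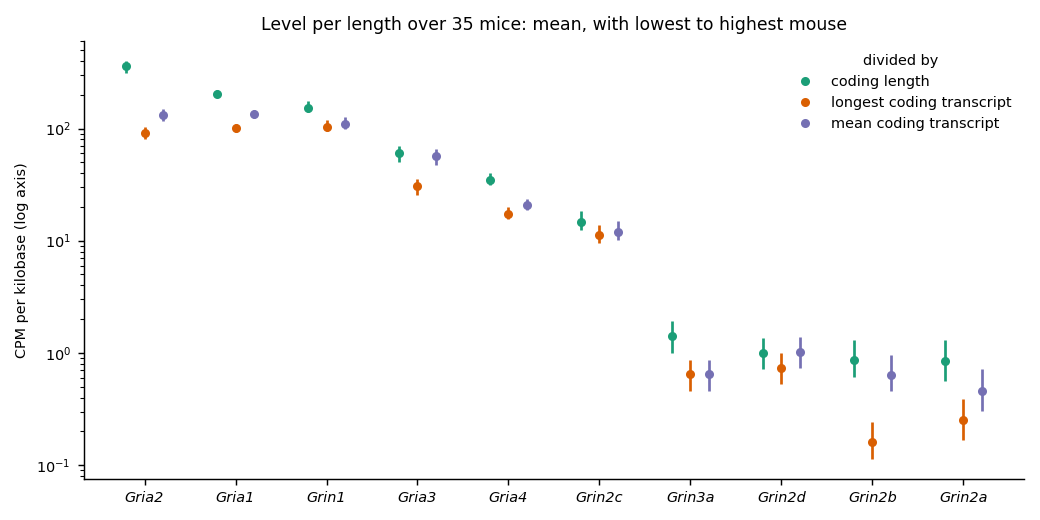
Level of each subunit gene per length over the 35 mice, in CPM per kilobase on a log axis; points are means, vertical lines run from the lowest to the highest mouse, and colors give the length used. *Gria2*, *Gria1* and *Grin1* change places with the length, and the 4 scarce rows lie below 2 CPM per kilobase with every length.

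A limit applies to the scarce rows. The table splits some genes over several row names, as it does for *Gria3*, which also has a row called GluR_alpha3. *Grin2a* and *Grin2b*, whose proteins are the main GluN2 subunits of the adult forebrain, had rows below *Grin2c* in every mouse per length, and reads of these genes may be counted under names that could not be matched here. Their values are those of the rows named *Grin2a* and *Grin2b*, and no ratio between GluN2 subunits was formed.

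Genotype was compared first over all treatments. Of the 10 subunit genes, 7 passed an adjusted p of 0.05 and 3 did not. Of all 17639 rows tested, 39.8% passed, 18% as lower and 21.8% as higher in Htt Q111/+ mice. Among the subunits 6 were lower (*Gria3*, *Gria4*, *Grin1*, *Grin2a*, *Grin2b* and *Grin2c*) and 1 was higher (*Gria1*). *Gria2*, *Grin2d* and *Grin3a* did not pass. The median log2 fold change was -0.09 over the 10 genes and 0.0037 over all rows, and the median size regardless of sign was 0.09 in each case. In size, the median subunit gene thus matched the median row, but single genes spread from -0.0071 for *Gria2* to -0.33 for *Grin2b*. The 5th and 25th percentiles of all rows were -0.35 and -0.095.

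*Gria1* encodes GluA1, the subunit whose phosphorylation by protein kinases and delivery to synapses has been studied most in plasticity. In WT mice it ranged from 520 to 575 CPM with a median of 544 CPM, and in Htt Q111/+ mice from 539 to 604 CPM with a median of 566 CPM. Of the 18 Htt Q111/+ mice, 17 were above the WT median, and the ranges overlapped. The log2 fold change was 0.06 ± 0.02 (SE; 95% CI 0.03 to 0.09, adjusted p = 0.00134), a rise of 4.37%.

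By group, *Gria1* in WT mice ran from 524 to 558 CPM on saline (median 537 CPM) and from 520 to 575 CPM on *Htt* ASO (median 540.0 CPM). The 5 WT mice on control ASO had 529, 544, 544, 559.8 and 569 CPM. In Htt Q111/+ mice *Gria1* ran from 548 to 581 CPM on saline (median 565 CPM), from 557 to 604 CPM on control ASO (median 577 CPM) and from 539 to 578 CPM on *Htt* ASO (median 558 CPM). The Htt Q111/+ group had the higher median under each treatment, and the groups overlapped under each.

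*Gria2*, whose edited product limits calcium entry, showed no such shift. It ranged from 835 to 1067 CPM in WT mice (median 959 CPM) and from 866 to 1049 CPM in Htt Q111/+ mice (median 950.2 CPM). Of the 18 Htt Q111/+ mice, 10 were below the WT median and 8 above it. The log2 fold change was -0.0071 (95% CI -0.06 to 0.05, adjusted p = 0.861), an interval that ends short of the estimates for *Gria1* and *Gria4*. Under library totals without TMM the estimate for *Gria2* was 0.03, so its sign is not determined.

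*Gria4* encodes GluA4, which forms fast AMPA receptors and is used by many interneurons. It ranged from 90.8 to 108 CPM in WT mice (median 97.2 CPM) and from 85.2 to 98.5 CPM in Htt Q111/+ mice (median 91.1 CPM). Of the Htt Q111/+ mice, 7 lay below every WT mouse, and 7 of the 17 WT mice lay above every Htt Q111/+ mouse. On the log2 scale the difference was -0.10 ± 0.02 (SE; adjusted p = 0.00030), a fall of 6.42%.

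*Gria3* encodes GluA3. Its row ranged from 143 to 185 CPM in WT mice (median 167 CPM) and from 134 to 181 CPM in Htt Q111/+ mice (median 155 CPM). Of the Htt Q111/+ mice, 15 of 18 were below the WT median, with wide overlap. The log2 fold change was -0.10 ± 0.03 (SE; adjusted p = 0.0109). This call was lost under library totals without TMM (-0.06, adjusted p = 0.0984), with sequencing lane in the model (-0.08, adjusted p = 0.123) and without the 6 mice of lane 7, all Htt Q111/+ (-0.08, adjusted p = 0.0871).

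The GluR_alpha3 row, named after its values were seen, resembles a RefSeq synonym of *Gria3*. It ranged from 73.5 to 98.8 CPM in WT mice (median 85.4 CPM) and from 59.7 to 90.9 CPM in Htt Q111/+ mice (median 72.8 CPM), with 9 of the 18 Htt Q111/+ mice below every WT mouse. Its log2 fold change was -0.25 ± 0.05 (SE; adjusted p = 0.000106). With the GluR_alpha3 row added to *Gria3*, the log2 fold change of *Gria3* was -0.15. Which transcripts each row holds is not given in the sources used here.

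Ratios of counts within a library do not depend on how libraries are scaled. The ratio of *Gria1* to *Gria4* counts ranged from 4.90 to 5.86 in WT mice (median 5.53) and from 5.66 to 6.68 in Htt Q111/+ mice (median 6.19). The ratio of *Gria1* to *Gria2* ranged from 0.517 to 0.636 in WT mice (median 0.566) and from 0.570 to 0.641 in Htt Q111/+ mice (median 0.590). The ratio to *Gria4* separated the genotypes with little overlap, and the ratio to *Gria2* overlapped over most of its range. *Gria1* was called higher and *Gria4* lower by genotype, so this separation is no test apart from those calls. The ratio of *Gria2* to *Gria4* ranged from 8.18 to 10.99 in WT mice and from 9.23 to 11.6 in Htt Q111/+ mice. The ratio of *Grin1* to *Grin2c* ranged from 6.69 to 9.62 in WT mice and from 7.52 to 9.10 in Htt Q111/+ mice. These last ratios overlapped widely.

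**Figure D2:**
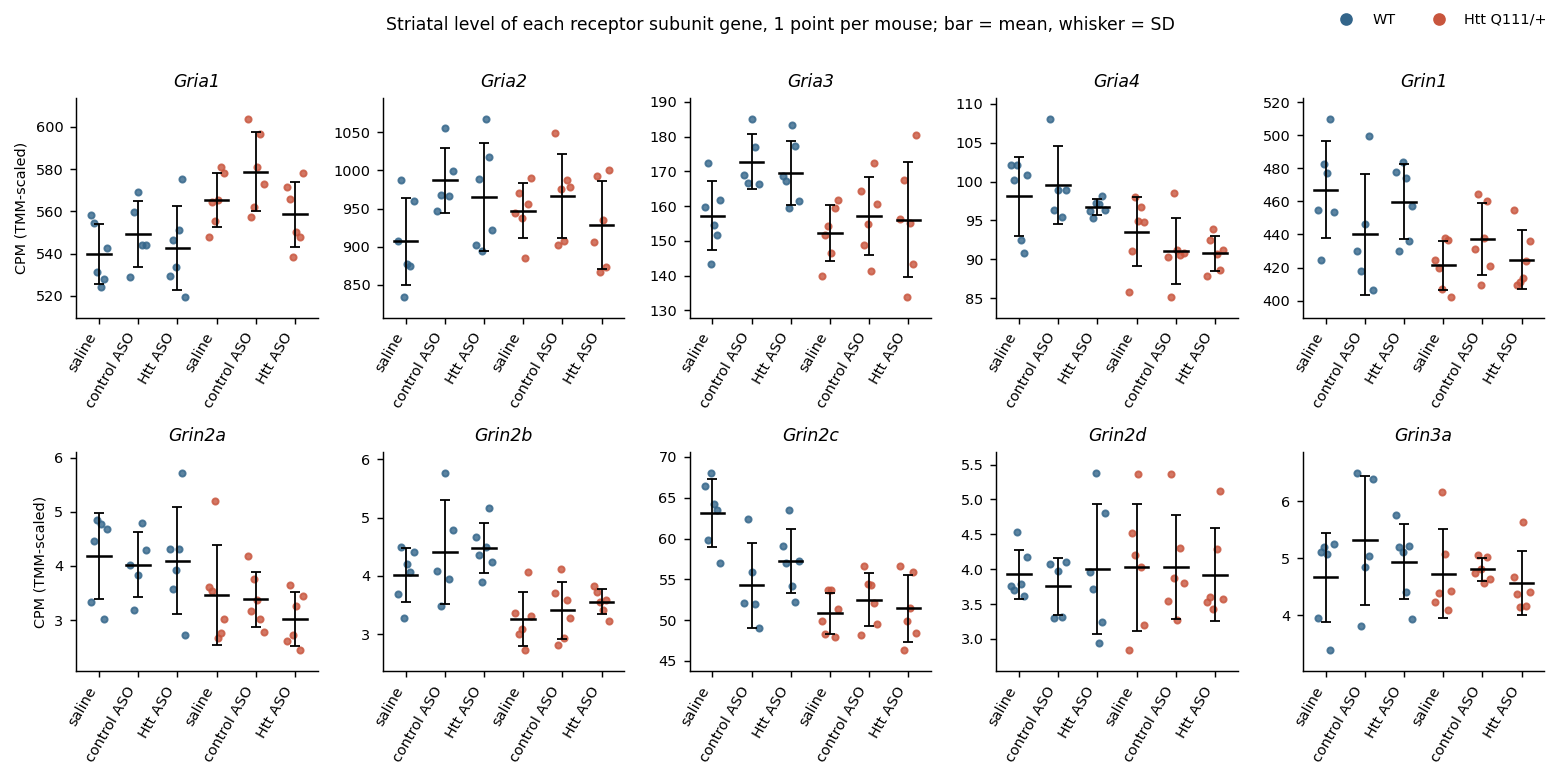
CPM of the 10 subunit genes by group, 1 point per mouse, with the mean (horizontal bar) and SD (whisker) of each group; blue is WT and red is Htt Q111/+, and the vertical axes do not start at 0. *Gria1* sits higher in the red groups, *Gria4* and *Grin2b* sit lower, and *Gria2* and *Grin2d* overlap throughout.

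Among the NMDA receptor genes, *Grin1* encodes the subunit that every NMDA receptor contains. It ranged from 407 to 510 CPM in WT mice (median 455 CPM) and from 402 to 465 CPM in Htt Q111/+ mice (median 424 CPM). Of the WT mice, 7 lay above every Htt Q111/+ mouse, while only 1 Htt Q111/+ mouse lay below every WT mouse. By genotype it changed by a log2 fold change of -0.09 ± 0.03 (SE; adjusted p = 0.00582), a fall of 5.98%. Under library totals without TMM it was -0.05 and not called (adjusted p = 0.101). The ratio of *Gria1* to *Grin1* counts, free of scaling, had a median of 1.20 in WT mice (1.04 to 1.34) and of 1.33 in Htt Q111/+ mice (1.20 to 1.44). *Gria1* was itself called higher, so this ratio does not show by itself whether *Grin1* fell.

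*Grin2b* encodes GluN2B, the subunit of slow NMDA receptors and of many extrasynaptic ones. Its row ranged from 3.28 to 5.76 CPM in WT mice (median 4.24 CPM) and from 2.73 to 4.12 CPM in Htt Q111/+ mice (median 3.40 CPM). None of the 18 Htt Q111/+ mice reached the WT median, 7 lay below every WT mouse, and 10 of 17 WT mice lay above every Htt Q111/+ mouse. This was a log2 fold change of -0.33 ± 0.06 (SE; 95% CI -0.46 to -0.20, adjusted p = 5.41e-05), a fall of 20.5%.

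*Grin2a* encodes GluN2A, the subunit of fast synaptic NMDA receptors in mature neurons. Its row ranged from 2.73 to 5.72 CPM in WT mice (median 4.29 CPM) and from 2.44 to 5.19 CPM in Htt Q111/+ mice (median 3.22 CPM). Of the Htt Q111/+ mice, 17 of 18 were below the WT median, and the mouse above it carried the highest value of its genotype. The log2 fold change was -0.32 ± 0.09 (SE; 95% CI -0.51 to -0.13, adjusted p = 0.00694). Without the 6 mice of lane 7, all Htt Q111/+ it was -0.27 and not called (adjusted p = 0.0704).

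*Grin2c* encodes GluN2C, a subunit with weak magnesium block that is best known from cerebellar granule cells and is also used by astrocytes. It ranged from 49.0 to 68.1 CPM in WT mice (median 57.3 CPM) and from 46.3 to 56.6 CPM in Htt Q111/+ mice (median 51.4 CPM). All 18 Htt Q111/+ mice were below the WT median, and 11 of 17 WT mice lay above every Htt Q111/+ mouse. This was a log2 fold change of -0.17 ± 0.03 (SE; adjusted p = 9.04e-05), a fall of 11.1%.

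The last 2 genes gave no call. *Grin2d*, which encodes GluN2D, a subunit of interneurons and of the developing brain, ranged from 2.94 to 5.38 CPM in WT mice (median 3.79 CPM) and from 2.84 to 5.37 CPM in Htt Q111/+ mice (median 3.84 CPM). Its log2 fold change was 0.03 (95% CI -0.14 to 0.20, adjusted p = 0.791). *Grin3a*, whose product GluN3A lowers calcium entry and is prominent in young brain, ranged from 3.39 to 6.50 CPM in WT mice (median 5.11 CPM) and from 4.10 to 6.17 CPM in Htt Q111/+ mice (median 4.61 CPM). Its log2 fold change was -0.07 (95% CI -0.21 to 0.08, adjusted p = 0.492). These intervals hold changes as large as those called in *Gria3*, *Gria4* and *Grin1*, so equal levels were not shown.

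The genotype difference was then taken within each treatment. With saline 3 subunit genes were called (*Grin1*, *Grin2b* and *Grin2c*), with control ASO 3 (*Gria1*, *Gria4* and *Grin2b*) and with *Htt* ASO 2 (*Grin2b* and *Grin2c*). Of all rows, 17.4%, 18.5% and 21.2% were called in the same comparisons. In the main fit *Grin2b* was the only subunit gene called under all 3 treatments. Its log2 fold changes were -0.31 (adjusted p = 0.0417), -0.35 (adjusted p = 0.0228) and -0.33 (adjusted p = 0.0218). After the GluR_alpha3 row was added to *Gria3*, a setting chosen after seeing the data, *Gria3* was also called under each treatment. The log2 fold change of *Gria3* was then -0.13 with saline (adjusted p = 0.00914) and -0.13 with control ASO (adjusted p = 0.0105). It was -0.19 with *Htt* ASO (adjusted p = 8.33e-05). In the fit with lane as a covariate none of these 3 *Grin2b* calls was kept, at -0.30, -0.33 and -0.26, with adjusted p of 0.104, 0.0659 and 0.121. The call of *Gria1* with control ASO was lost in 24 of the 35 fits that left out 1 mouse, and that of *Grin2c* with *Htt* ASO in 23 of 35.

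By group, *Grin2b* in WT mice ran from 3.28 to 4.49 CPM on saline (median 4.13 CPM) and from 3.90 to 5.17 CPM on *Htt* ASO (median 4.43 CPM). The 5 WT mice on control ASO had 3.49, 3.94, 4.09, 4.78 and 5.76 CPM. In Htt Q111/+ mice it ran from 2.73 to 4.07 CPM on saline (median 3.20 CPM), from 2.82 to 4.12 CPM on control ASO (median 3.44 CPM) and from 3.22 to 3.82 CPM on *Htt* ASO (median 3.57 CPM). With *Htt* ASO the highest Htt Q111/+ mouse was below the lowest WT mouse, and the other pairs of groups overlapped.

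*Grin2c* differed most between genotypes with saline. WT mice on saline ran from 57.0 to 68.1 CPM (median 63.9 CPM), and Htt Q111/+ mice on saline from 48.0 to 53.7 CPM (median 50.6 CPM), so these groups did not overlap. The 5 WT mice on control ASO had 49.0, 51.9, 52.1, 55.9 and 62.4 CPM, and Htt Q111/+ mice on control ASO ran from 48.2 to 56.6 CPM (median 53.2 CPM). With *Htt* ASO, WT mice ran from 52.2 to 63.5 CPM (median 57.1 CPM) and Htt Q111/+ mice from 46.3 to 56.6 CPM (median 50.7 CPM). The log2 fold changes were -0.31 with saline (adjusted p = 0.000102), -0.04 with control ASO (adjusted p = 0.656) and -0.15 with *Htt* ASO (adjusted p = 0.0497). The interaction of genotype with treatment gave an unadjusted p of 0.00909 for *Grin2c* and an adjusted p of 0.878, so a difference between treatments was not shown.

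*Grin1* had a similar order. WT mice on saline ran from 424 to 510 CPM (median 466 CPM) and Htt Q111/+ mice on saline from 402 to 438 CPM (median 422 CPM). The 5 WT mice on control ASO had 407, 418, 430.2, 446 and 500 CPM, and Htt Q111/+ mice on control ASO ran from 409 to 465 CPM (median 435 CPM). The log2 fold changes were -0.15 with saline (adjusted p = 0.0172), -0.0069 with control ASO (adjusted p = 0.942) and -0.11 with *Htt* ASO (adjusted p = 0.0632). *Grin1* was called with *Htt* ASO in 5 of 14 other settings, among them lane as a covariate (-0.16, adjusted p = 0.00137). The interaction had an adjusted p of 0.878. *Grin2a* was called within no treatment in the main fit, and with *Htt* ASO its log2 fold change was -0.42 (adjusted p = 0.0667). It was called there in 4 of 14 other settings.

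For *Gria4*, WT mice on saline ran from 90.8 to 102 CPM (median 100.6 CPM) and Htt Q111/+ mice on saline from 85.7 to 98.0 CPM (median 94.9 CPM). The 5 WT mice on control ASO had 95.5, 96.3, 98.9, 98.9 and 108 CPM against 85.2 to 98.5 CPM in Htt Q111/+ mice. With *Htt* ASO the WT mice lay between 95.3 and 98.2 CPM and the Htt Q111/+ mice between 87.9 and 93.9 CPM, so these groups did not overlap. The log2 fold changes were -0.07 (adjusted p = 0.194), -0.13 (adjusted p = 0.0135) and -0.09 (adjusted p = 0.0596) in that order of treatments. *Gria1* and *Gria4* were each called with control ASO and not with saline or *Htt* ASO. Under other settings *Gria4* was also called with *Htt* ASO in 5 of 14, and *Gria1* with saline in 2 and with *Htt* ASO in 1. Their interactions with treatment had adjusted p of 0.938 and 0.918.

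**Figure D3:**
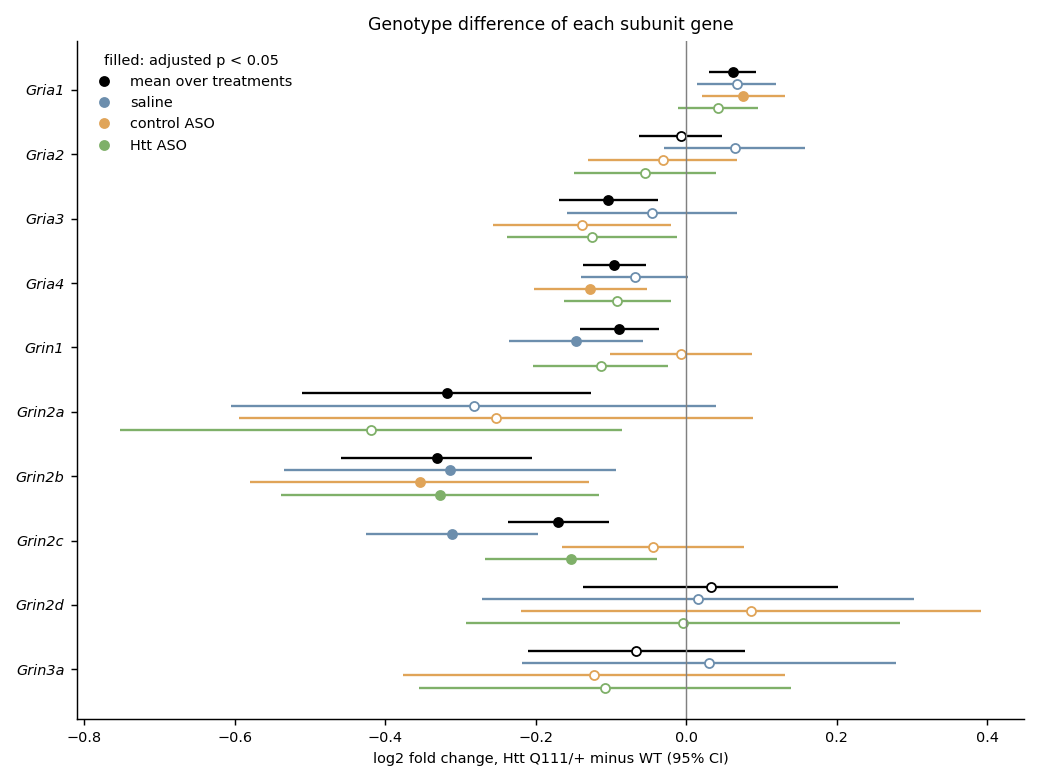
Log2 fold change between Htt Q111/+ and WT mice for each subunit gene with its 95% confidence interval, as the mean over treatments (black) and with saline, control ASO and *Htt* ASO (colors); filled points passed an adjusted p of 0.05. *Grin2b* is filled in all 4 positions, and the intervals of *Grin2d* and *Grin3a* span 0 in every one.

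The treatments were compared next. *Htt* ASO against control ASO, as the mean over genotypes, gave no call among the 10 subunit genes, while 0.935% of all rows passed. The estimates ran from -0.09 for *Grin3a* to 0.05 for *Grin2b*, and every adjusted p was 0.856 or more. For *Gria1*, the gene with the smallest p, the log2 difference was -0.03 (95% CI -0.07 to 0.0038, adjusted p = 0.856). No member had an unadjusted p below 0.05 by limma, and none was called by edgeR or DESeq2. Within WT mice 0.295% of all rows passed and within Htt Q111/+ mice 0.357%, with no subunit gene among them. For *Grin2b* in Htt Q111/+ mice the estimate was 0.06 (95% CI -0.16 to 0.29), an interval that includes 0.

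*Htt* ASO against saline, as the mean over genotypes, called 0 of the 10 genes and 1.47% of all rows. No member had an unadjusted p below 0.05 there by limma, while 1652 of the 17639 rows did. Within WT mice 1859 rows were below that threshold, and *Grin2c* was the only member among them. Its log2 difference by limma was -0.14 in WT mice (95% CI -0.26 to -0.03, unadjusted p = 0.0139, adjusted p = 0.362). In Htt Q111/+ mice it was 0.01 (95% CI -0.10 to 0.13). Control ASO against saline called 0 of 10 genes and 0% of all rows. In that comparison, as the mean over genotypes, 1357 of the 17639 rows had an unadjusted p below 0.05. Among them were 3 members, namely *Gria2* (log2 difference of 0.08), *Gria3* (0.09) and *Grin2c* (-0.09). Their adjusted p by limma were 0.611, 0.607 and 0.616. The *Grin2c* mean joined unlike values, -0.22 (95% CI -0.34 to -0.10, adjusted p = 0.318) in WT and 0.04 (95% CI -0.07 to 0.16) in Htt Q111/+ mice. Within a genotype no member was called in either comparison with saline, while *Htt* ASO passed 0.726% of all rows in WT and 0.556% in Htt Q111/+ mice and control ASO 0% in both. The interaction of genotype with treatment called 0 of 10 genes and 0% of all rows. Below an unadjusted p of 0.05 were 948 of the 17639 rows, with *Grin2c* the only member among them. Both comparisons with saline and the interaction called no member by edgeR or DESeq2. The comparisons share control groups and are not independent.

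The sample titles carry a code that was read here as the sequencing lane. Of the 6 lanes, 5 held mice of both genotypes and lane 7 held 6 Htt Q111/+ mice alone. The treatments were not balanced within lanes, so lane differences mix genotype with treatment. Within the 5 mixed lanes, *Gria1* was higher in Htt Q111/+ mice in 5 of 5, by mean log2 differences of 0.04 to 0.12. *Gria4* (-0.12 to -0.02), *Grin1* (-0.15 to -0.08), *Grin2b* (-0.51 to -0.07) and *Grin2c* (-0.35 to -0.09) were lower in 5 of 5. The same mice gave the genotype calls above, so these signs are no test apart from those calls. *Gria3* and *Grin2a* were lower in 4 of 5, and each was higher in the remaining lane, by 0.10 and 0.16. *Gria2* split 2 against 3, with a median of 0.0027.

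**Figure D4:**
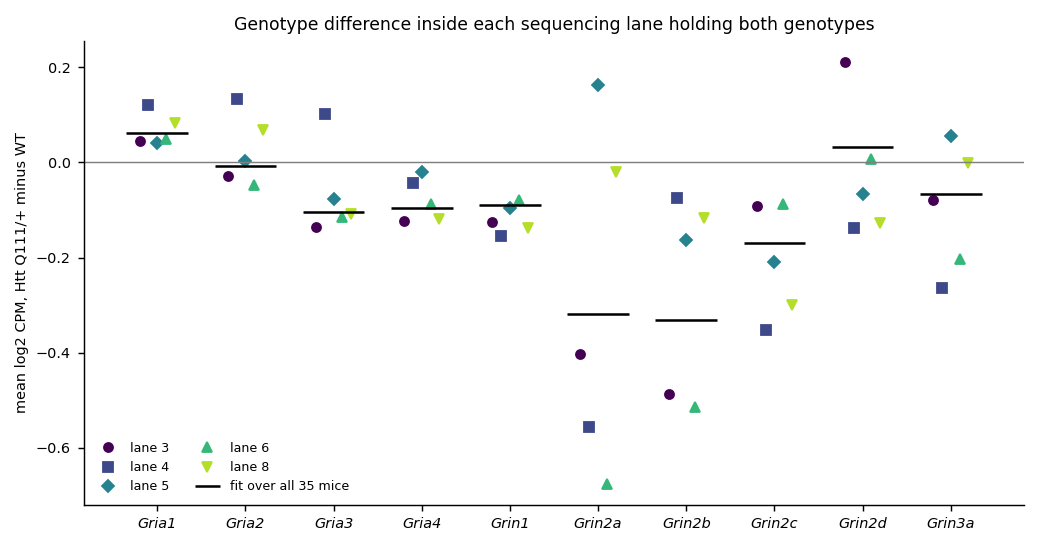
Mean log2 CPM of Htt Q111/+ minus WT mice inside each of the 5 lanes shared by WT and Htt Q111/+ mice, for each subunit gene, with 2 to 4 mice per genotype and lane; the black line is the fit over all 35 mice. Points of *Gria1* are all above 0, and those of *Gria4*, *Grin1*, *Grin2b* and *Grin2c* are all below it.

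The tissue was checked against cell type markers, beside 18% of all rows called lower and 21.8% called higher by genotype. Among 10 medium spiny neuron markers 9 were lower in Htt Q111/+ mice and 1, *Tac1*, was higher (log2 fold change of 0.13), with a median of -0.50. Their summed level ran from 7774 to 9116 CPM in WT mice and from 5277 to 6290 CPM in Htt Q111/+ mice without overlap. This difference moves with genotype beside every subunit call above, and its part in those calls was not tested. In whole striatum, fewer cells of a type and less RNA per cell cannot be told apart. All the defining markers had counts in every mouse, with *Drd1* at 198 to 334 CPM and *Ppp1r1b* at 1036 to 1929 CPM.

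Other cells moved less, and counts of called markers stand beside the same 18% and 21.8% of all rows. Of 8 astrocyte markers 3 were called, all lower, and their summed level ran from 1048 to 1358 CPM in WT and from 1005 to 1224 CPM in Htt Q111/+ mice. Of 10 interneuron markers 2 were lower and none higher (256 to 294 CPM against 238 to 277 CPM). Of 6 endothelial markers 5 were lower (205 to 321 CPM against 185 to 215 CPM). Of 9 cortical excitatory neuron markers tested 1 was lower and 2 were higher, and *Slc17a7*, the vesicular glutamate transporter of cortical neurons, ran from 4.35 to 53.0 CPM over the mice without a genotype call (adjusted p = 0.476). Called as lower were also 1 of 6 thalamic, 2 of 8 oligodendrocyte, 1 of 6 oligodendrocyte precursor and 4 of 8 microglia markers, with none higher in these lists. No choroid plexus (0 of 4) or blood (0 of 2) marker was called, although 1 WT mouse on control ASO had 1573 CPM of summed choroid plexus markers against at most 146 CPM in any Htt Q111/+ mouse. What part astrocyte or interneuron RNA had in *Grin2c* and *Gria4* was not tested, nor was the part of cortical RNA in *Grin2a* and *Grin2b*.

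The genes that act with these receptors were described by lists, beside 18% of all rows called lower and 21.8% called higher. Of 8 further ionotropic glutamate receptor genes, 2 were lower and 2 higher, with a median log2 fold change of -0.08. *Grik2*, a kainate receptor subunit, ranged from 68.8 to 85.2 CPM in WT and from 51.8 to 64.9 CPM in Htt Q111/+ mice, without overlap (log2 fold change of -0.36, adjusted p = 9.74e-12). *Grid1*, a delta receptor, was lower by a log2 fold change of -0.12. The kainate subunits *Grik4* (0.20) and *Grik1* (0.22) were higher. The *Grik1* call was lost with lane as a covariate (0.16, adjusted p = 0.10) and without the mice of the lane with a single genotype (adjusted p = 0.0641).

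Of 12 AMPA receptor auxiliary proteins tested, 4 were lower and 4 higher, with a median of 0.01. The stargazin family members *Cacng2* (-0.29), *Cacng3* (-0.28) and *Cacng4* (-0.27), which carry AMPA receptors to the membrane and slow their closing, were lower. *Cacng3* had a median of 53.0 CPM in WT and 42.8 CPM in Htt Q111/+ mice. *Cacng7* (0.17), of the same family, was higher, as was *Cpt1c* (0.13), a protein of the endoplasmic reticulum that binds GluA1. The fourth higher gene, *Cacng8* (0.12, adjusted p = 0.00589), also of the stargazin family, is named after its values were seen. *Cnih3*, a cornichon export factor for AMPA receptors, rose from a median of 4.71 CPM (2.89 to 5.52) in WT to 7.15 CPM (4.95 to 9.30) in Htt Q111/+ mice (log2 fold change of 0.66, adjusted p = 4.68e-09).

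Of 17 postsynaptic scaffolds and anchors tested, 7 were lower and 5 higher, with a median of 0.03. *Homer1*, which links metabotropic receptors and Shank proteins, was lower by -0.48 on the log2 scale, with a median of 180.2 CPM in WT and 131 CPM in Htt Q111/+ mice. *Shank3*, the base of the scaffold, had a log2 fold change of -0.46 and *Dlg2*, which encodes PSD-93, of -0.24. *Dlg1* (0.10), *Dlg3* (0.12), which encode SAP97 and SAP102, and *Shank2* (0.17) were higher. Members of 1 family thus went both ways.

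Of 12 kinases and phosphatases that act on the receptors, 8 were lower and 1 higher, with a median of -0.20. *Prkcb*, a protein kinase C, fell from a median of 1760 to 1240 CPM (log2 fold change of -0.50, adjusted p = 2.85e-16), without overlap between 1589 to 1987 CPM in WT and 1120 to 1399 CPM in Htt Q111/+ mice. *Ptpn5*, which encodes STEP, a phosphatase acting on GluN2B, had a log2 fold change of -0.40 and *Ppp3ca*, a catalytic subunit of calcineurin, of -0.36. *Cdk5* was higher by 0.06, a call that was lost with lane as a covariate (0.03, adjusted p = 0.201) and without the single-genotype lane (0.04, adjusted p = 0.162). *Ppp1r1b* in this list is also a medium spiny neuron marker.

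Of 5 genes for NMDA co-agonist synthesis and uptake tested, *Srr*, the serine racemase that makes D-serine, was lower (-0.08) and *Shmt2*, a mitochondrial glycine-forming enzyme, was higher (0.18). Under library totals without TMM *Srr* was not called (-0.04, adjusted p = 0.0857). Of 5 glutamate transporters, 3 were lower and 1 higher. *Slc1a3*, the astrocyte transporter GLAST, had a log2 fold change of -0.11 and *Slc1a1*, a neuronal transporter, of -0.10. *Slc1a2*, the main astrocyte transporter, had a log2 fold change of -0.73 (adjusted p = 0.0237), but its row spread from 51.0 to 291 CPM among WT mice alone. Without the single-genotype lane it was not called (adjusted p = 0.0651). *Slc1a6* was higher (0.47), at medians of 2.16 and 3.01 CPM. None of the 3 RNA editing enzymes was called, and *Adarb1*, which encodes the ADAR2 that edits the *Gria2* codon shown above, had a log2 fold change of 0.0042 (adjusted p = 0.887).

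**Figure D5:**
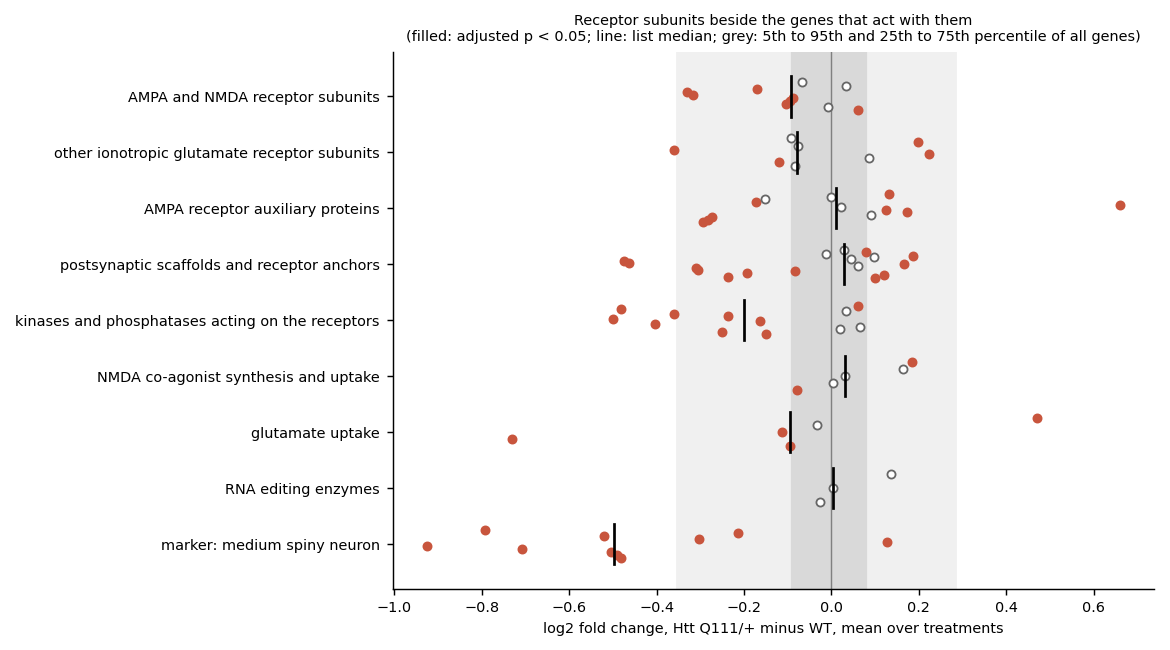
Log2 fold change by genotype, as the mean over treatments, of the subunit genes and of the lists of genes that act with them; filled points passed an adjusted p of 0.05, vertical lines are list medians, and grey bands give the 25th to 75th and 5th to 95th percentile of all rows. The medians are -0.09 for the subunits, -0.20 for the kinases and phosphatases and -0.50 for the medium spiny neuron markers.

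The promoter windows were read for the members that RefSeq lists in the table used (GRCm38.p6), which were 5 of 10. The 250 bases before the annotated start are printed, 5′ to 3′ on the gene's own strand, for *Grin1*, *Gria4* and *Grin2c*, which were lower in Htt Q111/+ mice, and for *Gria2*, which was not called. *Grin1* is at chr2:25319188-25319437, *Gria4* at chr9:4796235-4796484, *Grin2c* at chr11:115267244-115267493 and *Gria2* at chr3:80802836-80803085, all on the minus strand. Capitals mark matches, on either strand, to 4 motifs: GGACAG, part of the RE1 element of the neuronal gene repressor REST, TGACG, part of the cyclic AMP response element, GGGCGG, the GC box, and CCAAT.
Grin1: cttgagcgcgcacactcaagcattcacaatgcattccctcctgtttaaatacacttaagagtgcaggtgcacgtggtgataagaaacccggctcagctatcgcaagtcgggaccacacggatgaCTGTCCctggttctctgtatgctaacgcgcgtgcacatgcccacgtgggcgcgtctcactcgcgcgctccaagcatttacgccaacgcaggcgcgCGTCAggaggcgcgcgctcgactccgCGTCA
Gria4: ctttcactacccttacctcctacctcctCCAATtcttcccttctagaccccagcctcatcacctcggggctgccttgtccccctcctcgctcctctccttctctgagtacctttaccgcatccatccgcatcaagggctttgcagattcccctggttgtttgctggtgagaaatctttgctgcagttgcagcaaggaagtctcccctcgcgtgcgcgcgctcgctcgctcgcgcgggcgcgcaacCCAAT
Grin2c: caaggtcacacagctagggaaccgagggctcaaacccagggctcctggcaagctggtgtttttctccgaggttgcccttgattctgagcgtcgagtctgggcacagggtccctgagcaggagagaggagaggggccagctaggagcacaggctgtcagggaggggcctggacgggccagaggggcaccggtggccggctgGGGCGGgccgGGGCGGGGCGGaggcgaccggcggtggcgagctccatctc
Gria2: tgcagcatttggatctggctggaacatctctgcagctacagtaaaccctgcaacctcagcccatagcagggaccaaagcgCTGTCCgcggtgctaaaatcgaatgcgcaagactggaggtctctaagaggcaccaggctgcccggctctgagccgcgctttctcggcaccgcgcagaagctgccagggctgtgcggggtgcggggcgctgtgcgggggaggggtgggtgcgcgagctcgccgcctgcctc
The 3 called members with a window had none of the 4 motifs in common. *Grin1* held GGACAG beginning 126 bases before the start and TGACG at 31 and 5, all on the opposite strand. *Gria4* held CCAAT at 222 and 5, and *Grin2c* held GGGCGG at 50, 40 and 35, of which the last 2 share a base. *Gria2* held GGACAG at 170, as did *Grin2d* at 36, and neither gene was called. Of all 32851 windows of this length, 18.7% held GGACAG, 17.8% TGACG, 32.7% GGGCGG and 33.8% CCAAT on either strand.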

How the data were processed

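Striatal RNA of 35 mice was measured by RNAseq. The authors prepared stranded mRNA libraries, aligned reads with Bowtie 0.12.9 to the MGSCv37 (mm9) transcriptome and quantified genes with RSEM 1.1.18, and they deposited expected counts per row and mouse, unscaled. The treatment labelled ASO1 was taken as *Htt* ASO. RSEM shares a read among transcripts that it fits, so rows of similar sequence trade reads. The 10 subunits and all gene lists were chosen with earlier results of these data known.

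Rows were kept by filterByExpr (minimum count 10, minimum total 15) and scaled by TMM. Limma 3.58.1 after voom was fitted with a mean per group over all 35 mice, with Benjamini-Hochberg adjustment over the 17639 rows and a threshold of 0.05. Named were all members in every comparison, *Htt*, and from each list up to 3 genes per direction with the smallest adjusted p by genotype and a mean of at least 1 CPM. The alternatives were edgeR 4.0.16 and DESeq2 1.42.0 on rounded counts (R 4.3.3), other scalings, filters, weights and designs, and leaving out mice. Adding the GluR_alpha3 row to *Gria3* was chosen after seeing the data. Code was tested on simulated data. No 2 libraries of a group agreed within sampling noise (85 pairs). Of the listed genes, 7 could not be matched to a row.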

Additional observations from a re-analysis of the deposited data

Results flagged for a closer look

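In 3 of the 60 sets of 5 or 6 mice (10 genes by 6 groups), a mouse lay far from the others of its group by Dixon's test at the 95% level, which chance alone flags in about 5% of sets. The value of *Gria4* in WT control ASO replicate 1 was 108 CPM, with the next mouse at 98.9 CPM and the lowest at 95.5 CPM. Without that mouse the genotype difference of *Gria4* with control ASO was -0.10 on the log2 scale and no longer called (adjusted p = 0.0701).

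For *Grin2a*, Htt Q111/+ saline replicate 3 had 5.19 CPM, with the next mouse at 3.61 CPM and the lowest at 2.68 CPM. For *Grin3a*, Htt Q111/+ *Htt* ASO replicate 4 had 5.65 CPM, with the next at 4.67 CPM and the lowest at 4.15 CPM. The genotype calls over treatments of *Grin2a* and *Grin3a* were the same with each of these mice left out.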

How the results depend on the processing

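No paired analysis was possible because the replicate numbers were given in accession order and pair no mice. With a block for the leading letters of each mouse name, whose meaning the labels do not give (common correlation 0.0909), *Gria1* lost its call with control ASO (adjusted p = 0.0534) and *Gria4* gained one with *Htt* ASO (adjusted p = 0.0469). The number of subunit genes called by genotype over treatments was 7 in each of the 35 fits that left out 1 mouse and 5 to 7 in 14 other settings. *Gria1*, *Gria4*, *Grin2b* and *Grin2c* were called in all of these. Calls within a treatment were less stable. Leaving out 1 mouse gave 1 to 4 genes with saline, 1 to 3 with control ASO and 1 to 4 with *Htt* ASO. Those fits called 2529 to 3105 rows by genotype with saline, 2507 to 3330 with control ASO and 3125 to 3803 with *Htt* ASO. Over treatments they called 6767 to 7089 rows. With saline the count of subunit genes fell to 1 without WT saline replicate 5, and *Grin1* was then not called (adjusted p = 0.0567). Under library totals, saline lost *Grin1* (-0.11, adjusted p = 0.0647) and *Grin2b* (-0.27, adjusted p = 0.0694) and gained *Gria1* (adjusted p = 0.00177). With control ASO the count was 0 with lane as a covariate, 1 without the mice of the lane with a single genotype and 0 with only the groups compared. With *Htt* ASO it was 5 by DESeq2, 1 with no filter, 4 with a filter at a mean of 1 CPM and 4 with only the groups compared. In the 14 other settings 3039 to 5324 of all rows were called by genotype with *Htt* ASO. With control ASO it was 1902 to 3725, with saline 2110 to 3874 and over treatments 5758 to 8089. *Grin2b* lost its call in 8 of the 35 fits that left out 1 mouse with saline, 4 with control ASO and 1 with *Htt* ASO. The comparisons between treatments, over genotypes and within each, and the interactions called no member in any of these settings.

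Signs turned only in estimates that were not called. Over treatments *Gria2* was 0.0317 under library totals, 0.0206 with lane and 0.0074 without the mice of the single-genotype lane, and ran from -0.0183 to 0.0010 when 1 mouse was left out. *Grin2d* was -0.0070 with lane. With saline, leaving out the single-genotype lane gave *Gria3* 0.0174 and *Grin2d* -0.0456, and *Grin3a* was -0.0048 with lane and -0.0262 with sample weights. With control ASO, *Grin1* was 0.0174 under library totals and 0.0019 with sample weights. With *Htt* ASO, *Grin2d* was 0.0487 under library totals, 0.0270 with sample weights, 0.0517 without the left hemistriatum mouse and 0.0203 without the single-genotype lane. With 1 mouse left out, *Grin1* (-0.0376 to 0.0401) and *Grin2c* (-0.0827 to 0.0067) with control ASO, *Grin2d* with *Htt* ASO (-0.0936 to 0.0842) and with saline (-0.0780 to 0.109) and *Grin3a* with saline (-0.0615 to 0.0684) also changed sign. The cause was not tested. Library totals without TMM raised the median row by 0.04 on the log2 scale and made 72.1% of called rows higher, against 54.7% with TMM. *Htt* ASO against control ASO within Htt Q111/+ mice called 98 rows by DESeq2 and 29 without the single-genotype lane, against 63, and over genotypes it called 105 without that lane against 165. By genotype with control ASO, 1902 rows were called without that lane against 3266.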
